A study of Mus musculus with 6 samples.

Results

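The 9 genes described here are regulators of the fetal gene programme and of the globin switch: Lin28b, Igf2bp1, Igf2bp2, Igf2bp3, Hmga2, Bcl11a, Sox6, Zbtb7a and Ikzf1. They were taken by name from a table of 34542 genes, by a rule that uses no measured value, though the list was drawn up with earlier results of these data known. Polyadenylated RNA was sequenced from fetal liver cells of C57BL/6J embryos. The libraries came from 3 embryo samples (KO, replicates 4, 5 and 6) that lack the locus of the microRNAs miR-144 and miR-451, and from 3 wild-type samples (WT, replicates 1, 2 and 3). The labels name no treatment, no sort and no restriction of the knockout to a cell type. They state neither the embryonic age nor whether embryos were pooled for a library, so the p-values cover only the spread among these samples. The design asks what the loss of the locus changes in fetal liver RNA.

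Fetal blood cells differ from adult ones in a set of RNA-binding and chromatin proteins. LIN28B binds precursors of the let-7 microRNAs and blocks their maturation, which keeps let-7 targets such as HMGA2 and the IGF2BP proteins at fetal levels. A second group, BCL11A, SOX6, ZBTB7A and IKZF1, are DNA-binding repressors that silence embryonic or fetal globin genes in definitive red cells. In mice the genes silenced are the embryonic beta-like globins, since fetal liver red cells already use adult beta globin. The microRNAs of the deleted locus, miR-144 and miR-451, are made in large amounts by maturing red cells. All 9 genes passed the filter on low counts, with 219 to 15144 counts per gene and library. Globin genes were absent from the deposited table, so the globin switch itself was not measured.

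The microRNAs of interest pair with messenger RNAs through bases 2 to 8, the seed, shown in capitals. Mature let-7 and miR-98 microRNAs of RefSeq were kept if they carry the seed of let-7a-5p. This gave 10 mature microRNAs, for which let-7a-5p stands, from 12 genes placed on GRCm38 in that set. The 12 are not every let-7 gene, since Mirlet7a-2 of the deposited counts is not among them. The deleted locus gives 3 further seeds.
let-7a-5p: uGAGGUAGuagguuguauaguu
miR-144-3p: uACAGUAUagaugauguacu
miR-144-5p: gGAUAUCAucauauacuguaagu
miR-451a: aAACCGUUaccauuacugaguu

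Seed matches were searched in the sense orientation of 1 untranslated region after the stop codon (3' UTR) per gene, the longest that GRCm38 annotates. The words were CTACCTC for let-7, ATACTGT for miR-144-3p, TGATATC for miR-144-5p and AACGGTT for miR-451a. A match followed by an A is called an 8mer and any other a 7mer-m8. The let-7 word was present in 5 of the 9 genes, with 14 matches, of which 7 were 8mers. Lin28b, Igf2bp1 and Hmga2 held 4 each, and Igf2bp2 and Igf2bp3 held 1 each. Bcl11a, Sox6, Zbtb7a and Ikzf1 held none. Over all 20996 UTRs searched, 8.95% held the word. Among UTRs of like length (0.8 to 1.25 times as long) the share was 24.1% for Lin28b, 34.4% for Igf2bp1, 12.05% for Igf2bp2, 13.3% for Igf2bp3 and 16.1% for Hmga2. For the genes without the word it was 17.4% for Bcl11a, 32.1% for Sox6, 20.03% for Zbtb7a and 17.9% for Ikzf1. Most UTRs of those lengths thus lack the word, so its absence alone does not set a repressor apart. The first 8mer of each of the 5 genes is shown with the 21 bases before it, because these matches are shared by Lin28b, the Igf2bp genes and Hmga2 and by none of the globin repressors. Capitals mark the seed match, whose GRCm38 position and strand stand in the name.
Lin28b, chr10:45381023-45381029, minus strand: cccuucacccgggcgggaaguCUACCUCa
Igf2bp1, chr11:95961779-95961785, minus strand: ggcagugcugugcgaaguaaaCUACCUCa
Igf2bp2, chr16:22059474-22059480, minus strand: agaaaaacacacaaauaaaagCUACCUCa
Igf2bp3, chr6:49086788-49086794, minus strand: uaaacgugcauuuuuacucaaCUACCUCa
Hmga2, chr10:120364225-120364231, minus strand: gggggcgccgacauucaauuuCUACCUCa

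Matches to the deleted microRNAs were spread over both groups. The miR-144-3p word was present once each in Lin28b, Igf2bp1, Zbtb7a and Ikzf1, and in 11.9% of all UTRs. It is frequent in long UTRs: the share among UTRs of like length was 34.4% for Lin28b, 42.9% for Igf2bp1, 29.4% for Zbtb7a and 26.2% for Ikzf1. The miR-451a word, found in 1.74% of all UTRs, was present in Igf2bp3 alone among the 9. Igf2bp3 also held the miR-144-5p word, found in 6.10% of all UTRs. Among UTRs of the length of Igf2bp3's, 3.35% held the miR-451a word and 8.36% the miR-144-5p word. The miR-451a match of Igf2bp3 lies where the opposite-strand gene Malsu1 also has its span. Igf2bp2, Hmga2, Bcl11a and Sox6 held none of the 3 words. A match describes letters only, and binding was not measured in the files used here. The 6 matches are shown because they are where the deleted microRNAs could pair.
Lin28b with miR-144-3p, chr10:45377275-45377281, minus strand: aagcacccaguucugucuuacAUACUGUc
Igf2bp1 with miR-144-3p, chr11:95961228-95961234, minus strand: agaaauaauaacuaaaaaauaAUACUGUu
Zbtb7a with miR-144-3p, chr10:81150749-81150755, plus strand: cccccaauauacugcaaucacAUACUGUa
Ikzf1 with miR-144-3p, chr11:11770383-11770389, plus strand: gaccuuuuuuuuaaacuucugAUACUGUa
Igf2bp3 with miR-144-5p, chr6:49087074-49087080, minus strand: gagaacucugcacuucccuugUGAUAUCa
Igf2bp3 with miR-451a, chr6:49085975-49085981, minus strand: gucaagguaggggauccagcaAACGGUUu

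**Figure D1:**
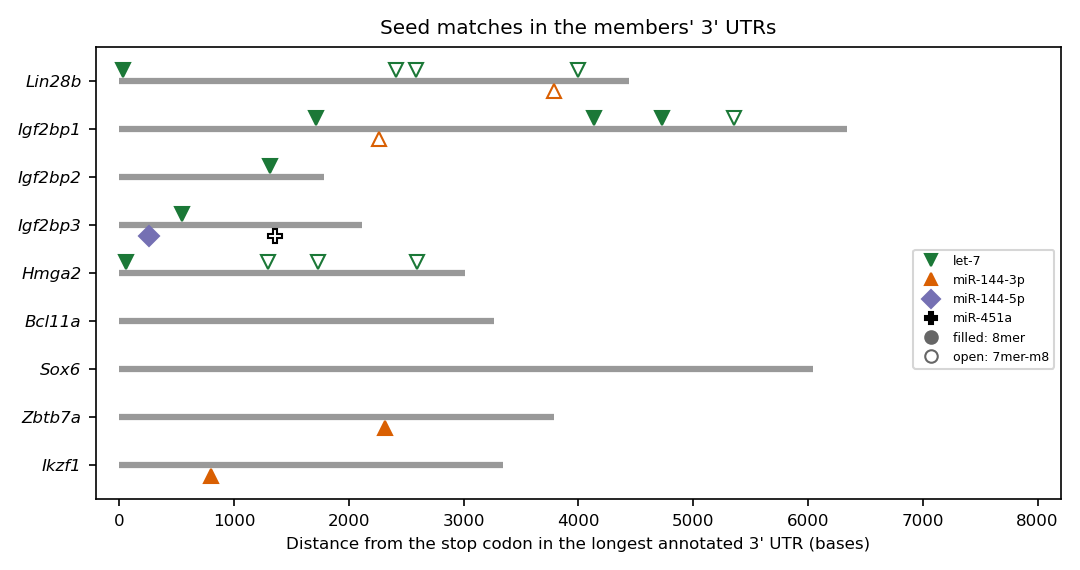
Seed matches along the longest annotated 3' UTR of each of the 9 genes, with the distance from the stop codon in bases on the x axis. Green triangles above the lines mark let-7 words, which occur in the upper 5 genes, and symbols below the lines mark words of the deleted microRNAs. Filled symbols are 8mers and open symbols 7mer-m8 matches.

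The deletion was visible in every KO library. Mir144 had 1, 1 and 0 counts in KO replicates 4, 5 and 6, against 51, 47 and 29 counts in WT replicates 1, 2 and 3. Mir451 had 3, 2 and 4 counts in the KO libraries, against 323, 446 and 418 in the WT libraries. Libraries held 40392139 to 44700229 gene counts in KO and 24659978 to 36082084 in WT. The liver's own markers were present in every library: Alb of hepatocytes at 5387 to 19874 CPM in KO and 3788 to 25923 CPM in WT, and the red cell anion exchanger Slc4a1 at 6381 to 7847 CPM in KO and 8486 to 12085 CPM in WT. CPM is the read count relative to the scaled library total. Hepatocyte markers varied within both groups. Their mean level, in log2(CPM + 0.5), was 7.16, 7.87 and 8.98 in KO replicates 4, 5 and 6, against 7.36, 9.35 and 6.61 in WT replicates 1, 2 and 3. KO replicate 6 and WT replicate 2 were thus the highest of their groups. The summed level of 16 erythroid markers was 21735 to 25265 CPM in KO and 28431 to 39186 CPM in WT, with no overlap between groups. Of these 16, 3 passed the edgeR test used below, all lower in KO (Tfrc, Epb4.2 and Trim10), and DESeq2 called 11. Over all tested genes, edgeR called 1.45% lower in KO, and DESeq2 called 8.66% in either direction. With bulk RNA, fewer cells of a type and less RNA per cell cannot be told apart.

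No gene of the 9 passed the test for a difference between KO and WT livers. The test was edgeR's quasi-likelihood test with Benjamini-Hochberg adjustment over 15105 genes, at an adjusted p of 0.05. It called 495 of those genes, or 3.28%, of which 1.83% were higher and 1.45% lower in KO. Unadjusted p-values under 0.05 were reached by Sox6 and Zbtb7a, 2 of the 9, while 16.6% of all tested genes had one. DESeq2 called 1 of the 9 (8.66% of all genes) and limma-voom called 0 (3.24%). The KO and WT libraries did not overlap for Hmga2 and Sox6, also 2 of the 9, against 22.7% of all tested genes. The median log2 change (KO minus WT) was -0.16 over the 9 genes and -0.03 over all tested genes. The adjusted p-values of single genes below are all from this edgeR test.

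Lin28b (chr10:45376620-45486395, minus strand, GRCm38 as for all positions) stands at the head of the programme. Its level was 57.7, 51.7 and 41.8 CPM in KO replicates 4, 5 and 6, against 62.0, 43.1 and 67.2 CPM in WT replicates 1, 2 and 3. The ranges overlapped, with the lowest value of each group in its library of highest hepatocyte marker level. The log2 change was -0.19 (SE 0.19, adjusted p = 0.768, edgeR). The 95% interval of the ratio of KO to WT ran from 0.635 to 1.21. Intervals of single genes are not adjusted for the number of genes tested.

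The 3 IGF2BP proteins bind messenger RNAs, Igf2 mRNA among them, and protect many of them from decay. Igf2bp1 (chr11:95957163-96005940, minus strand), which raises fetal globin when restored in human adult erythroblasts, was at 52.8, 38.0 and 48.6 CPM in KO, against 34.9, 38.9 and 40.6 CPM in WT. KO replicate 5 lay within the WT range, and the other KO libraries lay above it. Its log2 change was 0.29 (SE 0.14, adjusted p = 0.376, edgeR), with a ratio of KO to WT between 0.969 and 1.54. Igf2bp2 (chr16:22059009-22163299, minus strand) was at 10.3, 10.8 and 18.2 CPM in KO, against 9.14, 16.6 and 9.09 CPM in WT. Both groups had 1 high library, KO replicate 6 and WT replicate 2, the pair rich in hepatocyte markers. A log2 change of 0.17 was estimated (SE 0.33, adjusted p = 0.926, edgeR), and the interval of the ratio, 0.651 to 1.95, was the widest of the 9.

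Igf2bp3 (chr6:49085223-49214957, minus strand), a partner of LIN28B in the mouse fetal B cell programme, was at 60.6, 59.5 and 66.2 CPM in KO, against 50.9, 61.7 and 45.4 CPM in WT. Only WT replicate 2 reached into the KO range. Its log2 change was 0.24 (SE 0.12, adjusted p = 0.426, edgeR), with a 95% interval of the ratio from 0.958 to 1.45. Its exons overlap those of Malsu1 on the opposite strand, and the strand setting of the counting is not given, so the reads of both genes may be mixed. The sum of the 3 genes was 124, 108 and 133 CPM in KO, against 94.9, 117 and 95.1 CPM in WT, again overlapping. Igf2bp3 made up 47.8% to 54.9% of that sum in every library, Igf2bp1 33.2% to 42.7% and Igf2bp2 8.30% to 14.1%. The order of the 3 by count was therefore the same in all 6 libraries.

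Hmga2 (chr10:120361275-120476469, minus strand) encodes a chromatin protein that sustains self-renewal of fetal blood stem cells in mice. It was at 19.9, 17.2 and 20.1 CPM in KO, against 21.96, 22.2 and 20.3 CPM in WT. All KO libraries lay below all WT libraries, with the nearest pair at 20.1 and 20.3 CPM. This gap closed with upper-quartile scaling and with scaling to library totals only. The log2 change was -0.17 (SE 0.11, adjusted p = 0.524, edgeR), and the ratio of KO to WT lay between 0.741 and 1.06. An antisense gene, 1700006J14Rik, overlaps its exons, with the same limit on strand.

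Among the globin repressors, Bcl11a (chr11:24078056-24174123, plus strand) silences fetal globin in human red cells and embryonic globin in mouse ones, and it is also needed for B cell formation. It was at 148, 123 and 95.8 CPM in KO, against 136, 100.2 and 149.5 CPM in WT. The ranges were nearly the same in both groups. The log2 change was -0.07 (SE 0.20, adjusted p = 0.968, edgeR), with a ratio between 0.678 and 1.34. The antisense gene 4930538E20Rik overlaps its exons.

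Sox6 (chr7:115470872-116038796, minus strand) silences an embryonic beta-like globin gene in mice and promotes red cell maturation. It was at 288, 325 and 273 CPM in KO, against 454, 333 and 406 CPM in WT. All KO libraries lay below all WT libraries, though KO replicate 5 and WT replicate 2 were close. The log2 change of -0.43 (SE 0.14) was the largest of the 9 in size and did not pass the test (adjusted p = 0.184, edgeR). The ratio of KO to WT lay between 0.590 and 0.935.

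Zbtb7a (chr10:81135220-81152995, plus strand), also called LRF, represses fetal globin in human red cells and supports erythroid survival in mice. It was at 203.5, 189 and 174 CPM in KO, against 252, 203.3 and 262 CPM in WT. The lowest WT library, replicate 2, had the level of the highest KO library, replicate 4. The log2 change was -0.34 (SE 0.12, adjusted p = 0.228, edgeR), with a ratio between 0.647 and 0.967. Ikzf1 (chr11:11685003-11772926, plus strand) encodes Ikaros, a lymphoid factor that also acts on the globin locus. It was at 322, 316 and 269 CPM in KO, against 371, 288 and 355 CPM in WT, with overlapping ranges. Ikzf1 had a log2 change of -0.16 (SE 0.13, adjusted p = 0.655, edgeR), with a ratio between 0.721 and 1.11.

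**Figure D2:**
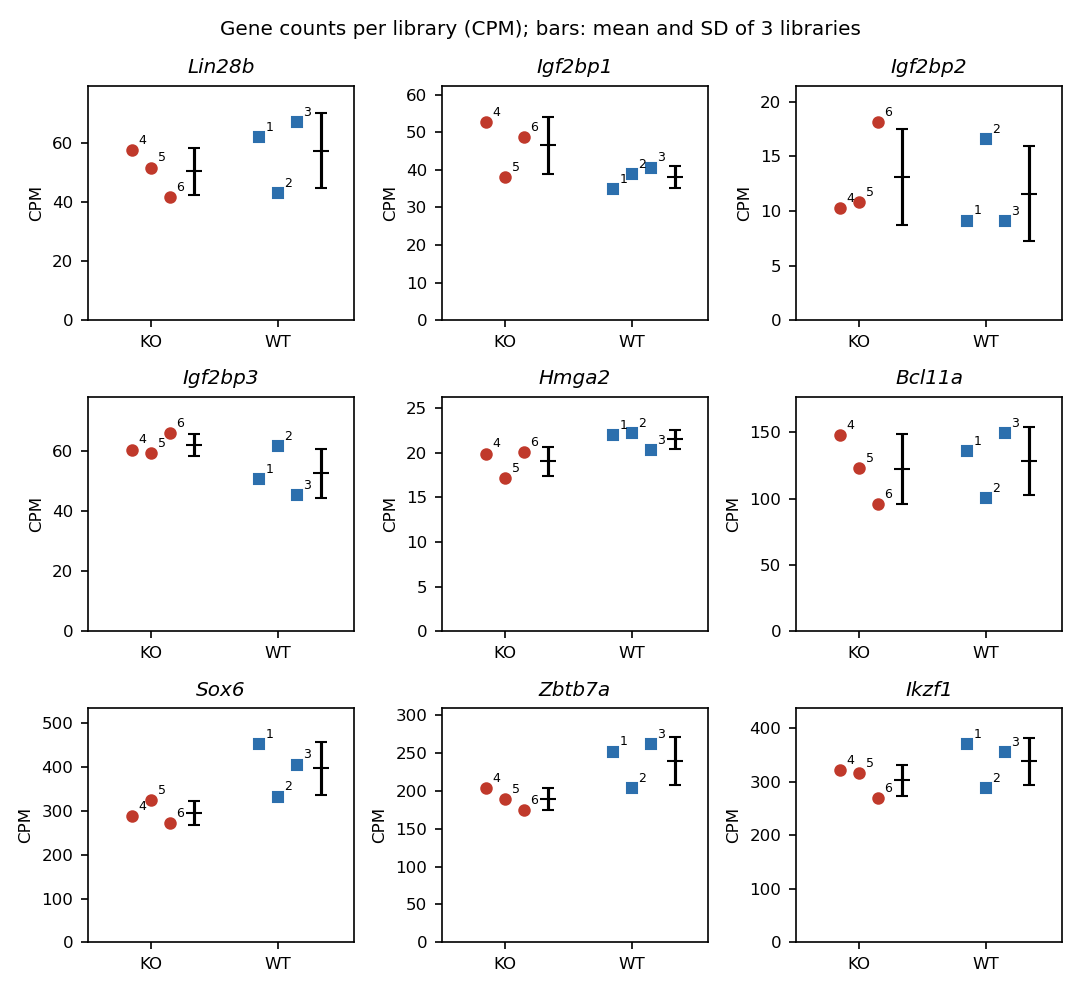
Level of each of the 9 genes in CPM (y axis, starting at 0) in KO livers (red circles) and WT livers (blue squares), with the replicate number beside each point and the mean and SD of 3 libraries as bars. Sox6 and Hmga2 are the genes whose groups do not overlap.

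The 5 genes with a word of a deleted microRNA had changes on both sides of 0, none past the test. Their log2 changes were 0.29 for Igf2bp1, 0.24 for Igf2bp3, -0.16 for Ikzf1, -0.19 for Lin28b and -0.34 for Zbtb7a. The 4 without such a word had 0.17 for Igf2bp2, -0.07 for Bcl11a, -0.17 for Hmga2 and -0.43 for Sox6. Mature let-7 was not measured in these polyadenylated libraries: the let-7 genes listed in the table had at most 9 counts in a library, for Mirlet7d.

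The library richest in hepatocyte markers was the extreme one of its group for most of the 9 genes. In both KO replicate 6 and WT replicate 2, Lin28b, Bcl11a, Sox6, Zbtb7a and Ikzf1 had the lowest value of the group, while Igf2bp2, Igf2bp3 and Hmga2 had the highest. Igf2bp1 was in the middle in both. Of all tested genes, 32.2% were lowest in both libraries and 29.1% highest in both, so each pattern is common in these data. With hepatocyte marker level added to the fit, 3 of the 9 passed the test, against 17.2% of all genes. These were Igf2bp3 (log2 change 0.22, adjusted p = 0.0407, edgeR), Sox6 (-0.40, adjusted p = 0.0269) and Zbtb7a (-0.30, adjusted p = 0.00878). Without both of those libraries, 9.41% of genes passed and the same 3 genes were among them, Igf2bp3 at 0.34 (adjusted p = 0.0493, edgeR), Sox6 at -0.46 (adjusted p = 0.0356) and Zbtb7a at -0.36 (adjusted p = 0.0367). Without WT replicate 2 alone, Sox6 (-0.54, adjusted p = 0.0273, edgeR) and Zbtb7a (-0.44, adjusted p = 0.0276) passed, with 9.77% of all genes. With any other single library left out neither passed. The adjusted p was then 0.167 to 0.492 for Sox6 and 0.201 to 0.563 for Zbtb7a (edgeR). DESeq2 on all 6 libraries called Sox6 (-0.42, adjusted p = 0.0385), with 8.66% of all genes.

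**Figure D3:**
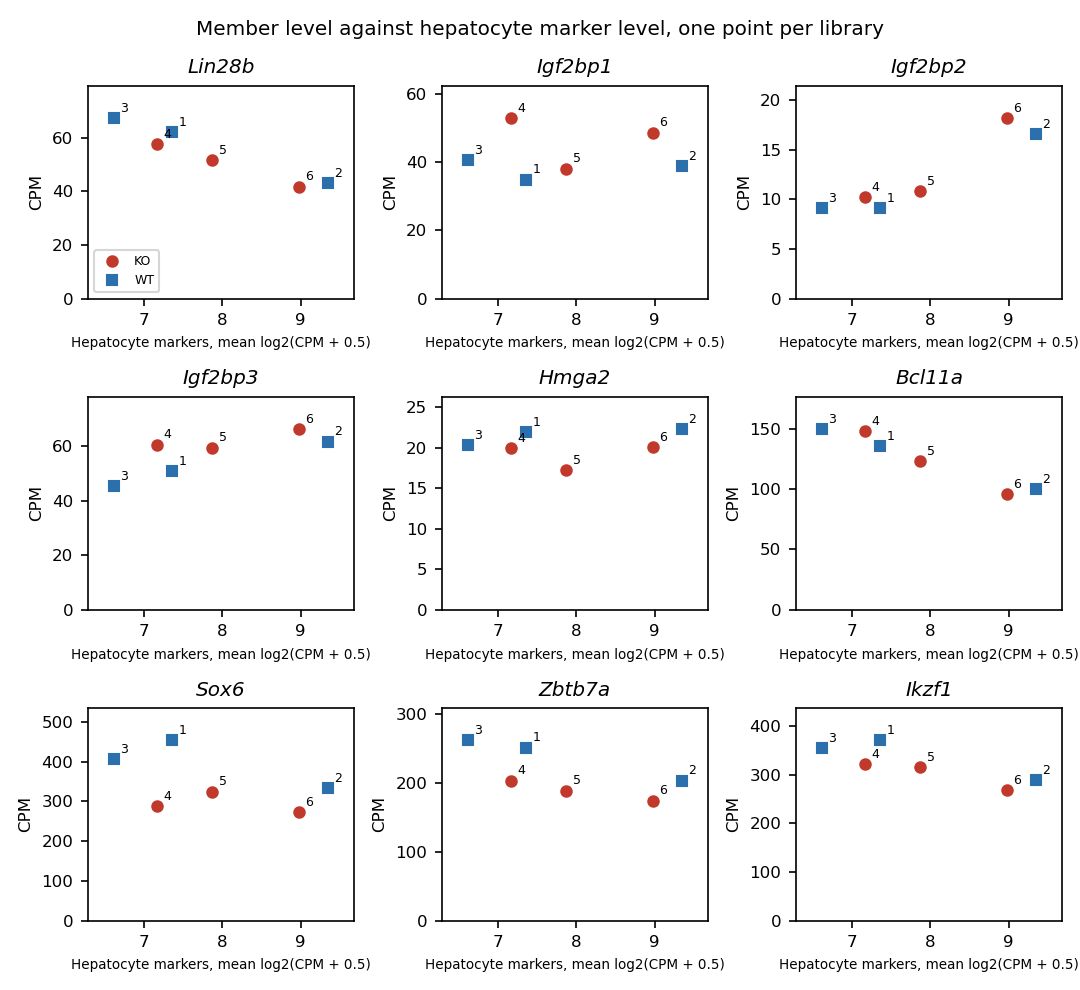
Level of each of the 9 genes in CPM (y axis) against the mean log2(CPM + 0.5) of 20 hepatocyte markers (x axis), 1 point per library with its replicate number, KO as red circles and WT as blue squares. Lin28b, Bcl11a and Ikzf1 are lowest in the libraries at the right, and Igf2bp2 is highest there.

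The erythroid marker sum, lower in every KO library than in any WT library, stood beside the Sox6 and Zbtb7a values. Per 1000 CPM of summed erythroid markers, Sox6 was at 12.7, 12.9 and 12.5 in KO, against 11.6, 11.7 and 11.6 in WT. The KO libraries lay above the WT ones on this scale. Zbtb7a was at 8.96, 7.48 and 8.02 in KO, against 6.42, 7.15 and 7.51 in WT, and its groups overlapped. Ikzf1 was at 14.2, 12.5 and 12.4 in KO, against 9.46, 10.1 and 10.2 in WT. On this scale 5 of the 9 genes (Igf2bp1, Igf2bp3, Bcl11a, Sox6 and Ikzf1) were higher in every KO library than in any WT library, against 53.1% of all tested genes. None was lower in every KO library, against 1.32%. This scaling moved the median of all tested genes to 0.50 on the log2 scale, and relative to that shift Sox6 (0.12), Zbtb7a (0.22), Lin28b (0.37), Hmga2 (0.37), Ikzf1 (0.39) and Bcl11a (0.49) lay below the median gene. Igf2bp2 (0.67), Igf2bp3 (0.76) and Igf2bp1 (0.83) lay above it. With it, 40.5% of all genes passed the test, and so did Igf2bp1, Igf2bp3 and Ikzf1 (adjusted p = 0.0270, 0.0371 and 0.0104 in that order, edgeR).

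Other blood cells that use these genes also varied. The summed level of 14 B lymphoid markers was 30.8 to 68.8 CPM in KO and 48.1 to 122 CPM in WT. The 12 stem and progenitor markers summed to 176 to 198 CPM in KO and 201 to 208 CPM in WT, without overlap. Their mean level, on the log2 scale used for the hepatocyte markers, did overlap. It was 2.68 to 2.97 in KO and 2.81 to 3.06 in WT. None of the 12 tested B lymphoid markers passed the edgeR test and none had an unadjusted p under 0.05. Of the 12 stem and progenitor markers none passed and 2 had one. Over all tested genes, 3.28% passed and 16.6% had one. DESeq2 called none of either list, against 8.66% of all genes. Their part in the levels of Bcl11a, Ikzf1, Lin28b or Hmga2 was not tested.

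Intron counts, taken here as a measure of unspliced RNA, gave no call either. Opposite-strand genes lie within Igf2bp3, Hmga2, Bcl11a, Sox6 and Ikzf1. The strand setting is not given, so their reads may be mixed into these counts. None of the 9 passed the test on intron counts, against 0.72% of 11803 genes by edgeR (85 called, 0.237% higher and 0.483% lower in KO). Lin28b had the largest difference of the 9, at 26.8, 35.9 and 29.6 intronic CPM in KO, against 40.3, 48.4 and 39.4 in WT. All KO libraries lay below all WT libraries. Its log2 change was -0.47 (SE 0.18, adjusted p = 0.380, edgeR), and it was the only one of the 9 with an unadjusted p under 0.05, against 10.8% of all tested genes. DESeq2 and limma-voom also called none of the 9 in introns. Hmga2 introns were at 124, 110 and 108 CPM in KO, against 138, 133 and 135 CPM in WT, also without overlap (log2 change -0.25, SE 0.12, adjusted p = 0.502, edgeR). Groups that do not overlap were found for 2 of the 9, against 17.5% of all genes. Sox6 introns were at 360, 516 and 310 CPM in KO, against 483, 620 and 311 CPM in WT. They overlapped widely (log2 change -0.25, SE 0.28, adjusted p = 0.871, edgeR).

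Exonic and intronic changes were compared gene by gene in a joint fit of 12 columns, an exon and an intron column per library. No gene of the 9 passed (adjusted p = 1 for each, edgeR), and 0 of 11100 genes did, with 3.17% at an unadjusted p under 0.05. None of the 9 was among that 3.17%. DESeq2 called 39 genes (0.358%) with the same terms, none of the 9. The differences ran from -0.21 (SE 0.20) for Zbtb7a to 0.30 (SE 0.30) for Lin28b on the log2 scale. The 95% intervals all included 0. The interval of Hmga2 was the narrowest, at -0.27 to 0.43, and that of Igf2bp2 the widest, at -0.90 to 0.74.

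**Figure D4:**
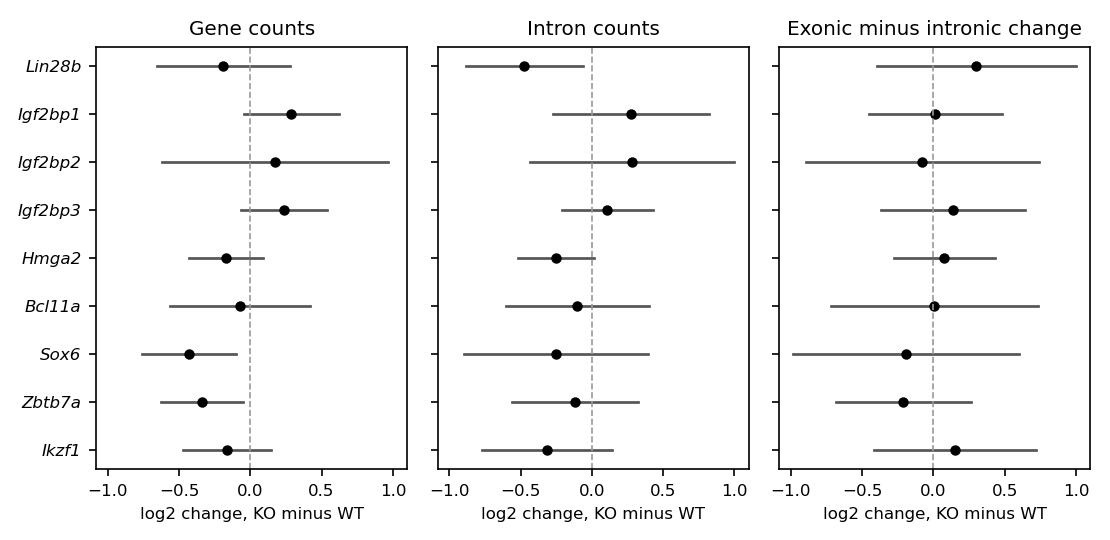
Log2 change, KO minus WT, of each of the 9 genes in gene counts, in intron counts, and as the exonic minus the intronic change; points are estimates and lines 95% intervals. The intervals of Sox6 and Zbtb7a in gene counts and of Lin28b in intron counts lie below 0, and all others include it.

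Hmga2 had the highest share of intronic reads of the 9. Over all libraries 56.8% of its exonic plus intronic counts were intronic, higher than in 92.1% of 11100 genes, whose median was 20.8%. The share was 60.2%, 52.4% and 52.3% in KO replicates 4, 5 and 6, against 55.8%, 54.1% and 66.1% in WT replicates 1, 2 and 3. The highest library of each group, KO replicate 4 and WT replicate 3, also had the highest intronic share of its group over all genes (21.3% and 23.4%, against 16.9% to 19.1% in the other libraries). The antisense genes 1700006J14Rik and 9230105E05Rik lie within Hmga2, and their part in its intronic counts was not tested. Igf2bp1 was at the other end, with 6.21%, higher than in 9.60% of genes. The other 7 lay between 9.71% (Igf2bp2) and 21.4% (Bcl11a).

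Scaled to length, the repressors were more abundant than the other 5 genes. In CPM per kilobase of all annotated exon, Ikzf1 averaged 52.3 ± 5.01 in KO and 58.5 ± 7.59 in WT (SD, n = 3 each). Zbtb7a averaged 27.8 ± 2.14 in KO and 35.1 ± 4.60 in WT, and Sox6 19.9 ± 1.81 in KO and 26.8 ± 4.10 in WT. Bcl11a averaged 9.28 ± 1.98 in KO and 9.75 ± 1.93 in WT. These 4 repressors were above the other 5 genes on average. Igf2bp3 averaged 7.61 ± 0.441 in KO and 6.46 ± 1.02 in WT, and Lin28b 5.56 ± 0.886 in KO and 6.34 ± 1.40 in WT. Igf2bp1 averaged 4.80 ± 0.784 in KO and 3.94 ± 0.304 in WT. Hmga2 (2.82 ± 0.240 in KO, 3.18 ± 0.154 in WT) and Igf2bp2 (1.77 ± 0.595 in KO, 1.57 ± 0.582 in WT) were lowest. Ikzf1, Hmga2 and Igf2bp2 did not overlap with any neighbour in this order. The ranges over libraries overlapped between Zbtb7a and Sox6, between Bcl11a and Igf2bp3, between Igf2bp3 and Lin28b and between Lin28b and Igf2bp1. Scaled to the longest annotated messenger RNA, Sox6 came above Zbtb7a and Hmga2 above Igf2bp1.

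**Figure D5:**
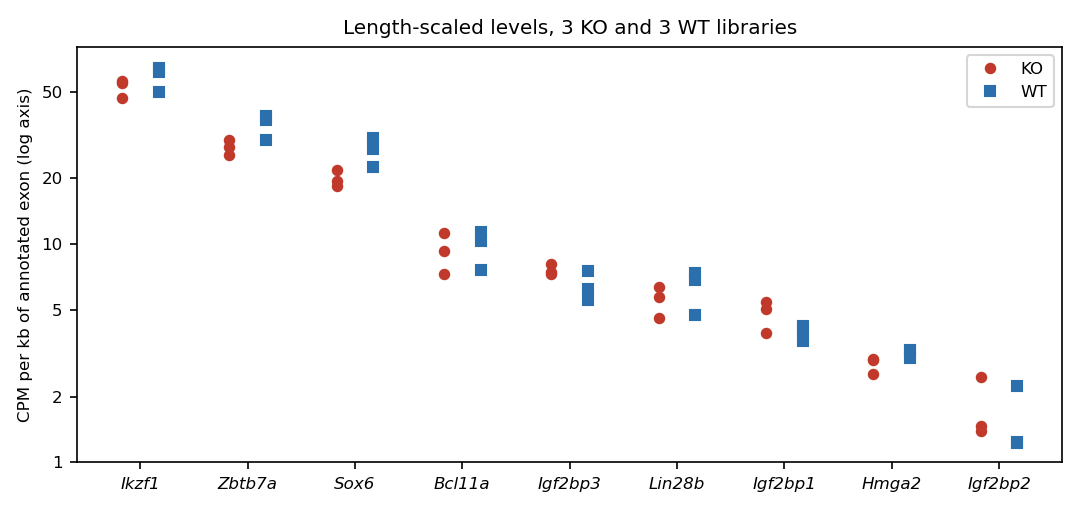
Level of the 9 genes in CPM per kilobase of annotated exon (log axis), with the 3 KO libraries (red circles) left of the 3 WT libraries (blue squares) of each gene. Ikzf1 lies at 46.6 to 64.2 and Igf2bp2 at 1.23 to 2.45.

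Genes that work with these regulators were followed in 5 lists. The lists share genes: Lin28a and Hmga1 are also among the paralogs. Klf1 and Gata1, in the list of other globin regulators, are also among the erythroid markers above. Of 7 tested genes for LIN28 and let-7 processing, Lin28b itself among them, none passed edgeR's test (3.28% of all tested genes did). None had an unadjusted p under 0.05 (16.6% of all) and none was called by DESeq2 (8.66% of all). The most abundant were Zcchc6, which adds uridines to let-7 precursors, with 362, 413 and 357 CPM in KO against 491, 321 and 430 CPM in WT (log2 change -0.13, SE 0.17, adjusted p = 0.835, edgeR), and Dicer1, which cuts them. Dicer1 was at 154, 137 and 139 CPM in KO, against 128, 123 and 132 CPM in WT. All KO libraries lay above all WT libraries, with a log2 change of 0.17 (SE 0.08, adjusted p = 0.357, edgeR). The median log2 change of the list was 0.13.

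Of 17 tested fetal growth genes with let-7 or IGF2BP links, none passed edgeR's test (3.28% of all tested genes) or DESeq2's (8.66%). An unadjusted p under 0.05 was reached by 5 (16.6% of all tested genes), and the median log2 change was -0.03. Actb, whose messenger RNA IGF2BP1 binds, was at 1628, 1646 and 1497 CPM in KO, against 1775, 1637 and 1689 CPM in WT, with overlap (log2 change -0.10, SE 0.11, adjusted p = 0.818, edgeR). Igf2, the growth factor whose messenger RNA the IGF2BP proteins bind, is named after its values were seen. It was at 711, 1029 and 1919 CPM in KO, against 784, 2587 and 510 CPM in WT (log2 change -0.09, SE 0.66, adjusted p = 0.996, edgeR). H19, the imprinted RNA beside it and the most abundant of the list, was at 1315, 1866 and 3496 CPM in KO, against 1417, 4474 and 927 CPM in WT (-0.03, SE 0.65, adjusted p = 0.998, edgeR). Igf2 and H19 were highest in KO replicate 6 and WT replicate 2, in the same order as the hepatocyte markers within each group.

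Of 23 other tested regulators of globin switching, 1 was lower in KO, none was higher and 22 did not pass, with a median of 0.00. An unadjusted p under 0.05 was reached by 8 (16.6% of all tested genes). DESeq2 called 3 and limma-voom 1. Over all genes, edgeR called 3.28%, DESeq2 8.66% and limma-voom 3.24%. Atf4, a transcription factor of the integrated stress response, was at 308, 299 and 268 CPM in KO, against 488, 393 and 467 CPM in WT. It fell by 0.62 on the log2 scale (SE 0.12, adjusted p = 0.0436, edgeR), with no overlap between groups. With any library other than WT replicate 2 left out, the adjusted p was 0.0713 to 0.189 and the log2 change -0.56 to -0.67. Scaled to the erythroid markers, which summed lower in every KO library, it was -0.07 (adjusted p = 0.505), against a median gene of 0.50.

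Of 12 tested genes of NuRD, the chromatin complex that BCL11A and ZBTB7A recruit, 1 was higher in KO, none was lower and 11 did not pass, with a median of 0.01. An unadjusted p under 0.05 was reached by 2 (16.6% of all tested genes). DESeq2 called 1 and limma-voom 0, against 8.66% and 3.24% of all genes, and edgeR called 1.83% of all genes higher in KO. Mta1, one of its scaffold subunits, was at 97.2, 93.8 and 90.0 CPM in KO, against 74.6, 62.7 and 69.1 CPM in WT. It rose by 0.45 on the log2 scale (SE 0.08, adjusted p = 0.0476, edgeR), with no overlap. With any library other than WT replicate 2 left out, the adjusted p was 0.0611 to 0.197 and the log2 change 0.41 to 0.51.

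Paralogs of the 9 genes gave no call by edgeR among 10 tested of 11 (3.28% of all tested genes were called). An unadjusted p under 0.05 was reached by 2 (16.6% of all), DESeq2 called 1 (8.66% of all), and the median was -0.15. Hmga1 was at 257, 235 and 226 CPM in KO, against 203, 153 and 221 CPM in WT, without overlap (log2 change 0.32, SE 0.15, adjusted p = 0.350, edgeR). Ikzf5, an Ikaros family member, was at 82.3, 86.4 and 74.2 CPM in KO, against 121, 98.6 and 120.1 CPM in WT, also without overlap (-0.48, SE 0.11, adjusted p = 0.0741, edgeR).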

How the data were processed

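The values are read counts as deposited by the authors, in a gene table and a table of exon and intron counts. STAR and HTSeq, without versions, and the builds NCBIM37 and mm10 are named in the submitters' processing notes. How strand and introns were handled is not stated there. Globin and mitochondrial genes had been removed, per the file headers and names, and 0 such symbols were found. The deposited exon counts equalled the gene counts for all 15543 genes with both, so exons and genes are 1 measurement. Counts were scaled by TMM and tested with edgeR 4.0.16 in R 4.3.3 after filterByExpr (minimum count 10, minimum total 15). The fit was run on simulated counts with known changes, whose exon and intron columns were drawn independently. That simulation does not show how the fit handles spread shared within a library. The 2 region tables were scaled separately, so their difference is relative to the median gene. Alternatives used DESeq2 1.42.0 and limma 3.58.1. CPM are counts relative to the TMM-scaled library total. Replicates of a group differed beyond sampling noise (chi-square per degree of freedom 16.7 to 157). The intervals given in the text come from the edgeR fits. Their width includes the spread among libraries as well as counting error. Positions are those of GENCODE for GRCm38, and microRNA sequences those of RefSeq for GRCm38.p6. The 9 genes, the lists and the tests were chosen with earlier results of these data known. All 9 are named; of each list, the genes that passed are named or, where none passed, the 2 most abundant; Igf2 was added after its values were seen.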

Additional observations from a re-analysis of the deposited data

How the results depend on the processing

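No paired analysis was possible because the groups share no replicate number (KO 4 to 6, WT 1 to 3). The 495 calls in gene counts became 796 with upper-quartile scaling, 1307 with DESeq2, 2601 with hepatocyte marker level as covariate and 1418 without WT replicate 2 and KO replicate 6. Leaving out 1 library gave 12 (without KO replicate 5) to 1495 (without WT replicate 2). Of the 9 genes, 0 were called, against 1 with DESeq2, 3 with the covariate, 3 without both libraries, and 0 to 2 with 1 library left out. Scaling to erythroid marker counts, chosen after seeing the data, called 6112 genes and 3 of the 9 and put Ikzf1 at 0.39, against -0.16; it moved the median of all genes from -0.03 to 0.50, and Lin28b, Hmga2, Bcl11a, Sox6 and Zbtb7a also came out above 0. The 85 intron calls became 340 with DESeq2, 14 with the covariate, 1 without both libraries and 10 to 148 with 1 library left out, with 0 of the 9 throughout. The exonic against intronic comparison gave 39 calls with DESeq2, 9 without a term per sample and 0 to 150 with 1 library left out (150 without WT replicate 3), against 0, and 0 of the 9 throughout. Atf4 and Mta1 missed the threshold without a filter on low counts (adjusted p = 0.0708 and 0.0561, edgeR), Mta1 with limma-voom (0.0579) and Atf4 with erythroid scaling. The cause was not tested. Bcl11a, at -0.07, was at 0.05 without WT replicate 3 and 0.07 without KO replicate 6. Igf2bp2 turned to -0.16 without KO replicate 6. Its counts, 219 to 750 per library, are the lowest of the 9. Its SE in gene counts was 0.33, while Hmga2, with 489 to 935 counts, had the smallest SE of the 9, 0.11. The cause of the spread of Igf2bp2 was not tested.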
